A study of Mus musculus with 37 samples.

Results

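The 9 genes described here are Kdm1a, Kdm5a, Kdm5b, Kdm5c, Kdm6b, Ezh1, Ezh2, Eed and Suz12. They encode demethylases of H3K4 and H3K27 and the core of the Polycomb repressive complex PRC2. They were taken by symbol from a table of 29955 genes, and all 9 were found, had a value above 0 in every library and passed the filter on low values in every comparison. RNA came from the cerebellum of C57BL/6 mice. The control group, here WT, carried floxed Mll4 (Mll4f/f), and the other group, here KO, carried the deletion that the labels call Mll4 BSKO, read here as a brain-specific knockout of a methyltransferase of H3K4. At 1 month of age there were 3 libraries of each genotype, and at 4 months 1 library of each. The sources used here do not give the promoter that drives Cre, the deleted exons, the sex of the animals or whether replicate libraries are separate animals. The p-values therefore reflect only how these libraries vary, which could be technical variation. No other treatment or allele is given for either group.

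Methyl groups on H3K4 lie at promoters and enhancers that are in use, while trimethylated H3K27 lies at genes held silent by Polycomb. KDM1A, also called LSD1, works with CoREST proteins and removes mono- and dimethyl groups from H3K4, and the KDM5 enzymes remove di- and trimethyl groups. KDM6B, also called JMJD3, and its relative KDM6A remove methyl groups from H3K27. PRC2 places those groups: EZH1 or EZH2 is its catalytic subunit, and EED and SUZ12 are needed for its assembly and activity. EZH2 is typical of dividing progenitors, and EZH1 persists in cells that no longer divide, such as neurons. In mouse cerebellar granule neurons, Kdm6b is known for its part in switching on genes of the mature cell.

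The deposited values are FPKM, fragment numbers corrected for transcript length and for each library's mapped total, so levels of different genes can be set side by side within a library. Absolute depth is unknown; depth estimated from the lowest values ran from 0.732 to 1.2 relative to WT replicate 1, and 19570 to 20433 genes were above 0. The targeted gene, listed as Mll2 and read as Mll4, stood at 18.2, 19.9 and 22.3 FPKM in the 1-month WT libraries, against 12.7, 13.6 and 23.5 FPKM in KO. The library labelled KO replicate 3 thus lay above all 3 WT libraries in the gene that its label says is deleted, although a whole-gene value cannot tell the deleted exons from the rest. At 4 months the same gene stood at 46.6 FPKM in WT and 16.6 FPKM in KO. In the library labelled KO at 4 months several markers of the labelled tissue were near 0. The granule neuron markers Gabra6, Fat2 and Cbln3 stood at 0.118, 0.214 and 0.236 FPKM there and the Purkinje cell marker Pcp2 at 0.544 FPKM, although Itpr1 at 125 and Rora at 27.5 FPKM were well above 0. In the same library 8 markers of the forebrain cortex summed to 176 FPKM against 12.4 to 24.7 FPKM elsewhere. The age results and the closest profiles are therefore also given without it.

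In 1-month WT cerebellum the 9 genes were expressed at middle to high levels. Kdm5b was the highest, at 23.3 ± 2.59 FPKM (SD, n = 3), followed by Ezh1 at 23.2 ± 0.823, Kdm5c at 22.9 ± 0.378 and Kdm1a at 21.6 ± 1.63 FPKM. These 4 genes could not be ordered, since each overlapped its neighbour in range. Suz12 stood at 17.2 ± 1.14 FPKM and overlapped neither Kdm1a above it nor Kdm5a below it. The lower levels were those of Kdm5a at 11.8 ± 1.95, Eed at 11.0 ± 0.4, Ezh2 at 9.67 ± 0.738 and Kdm6b at 7.71 ± 1.99 FPKM. Of these, Eed and Ezh2 did not overlap, while Kdm5a overlapped Eed and Ezh2 overlapped Kdm6b. Kdm6b lay above 59.4% and Kdm5b above 83.6% of the genes with any value in WT.

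**Figure D1:**
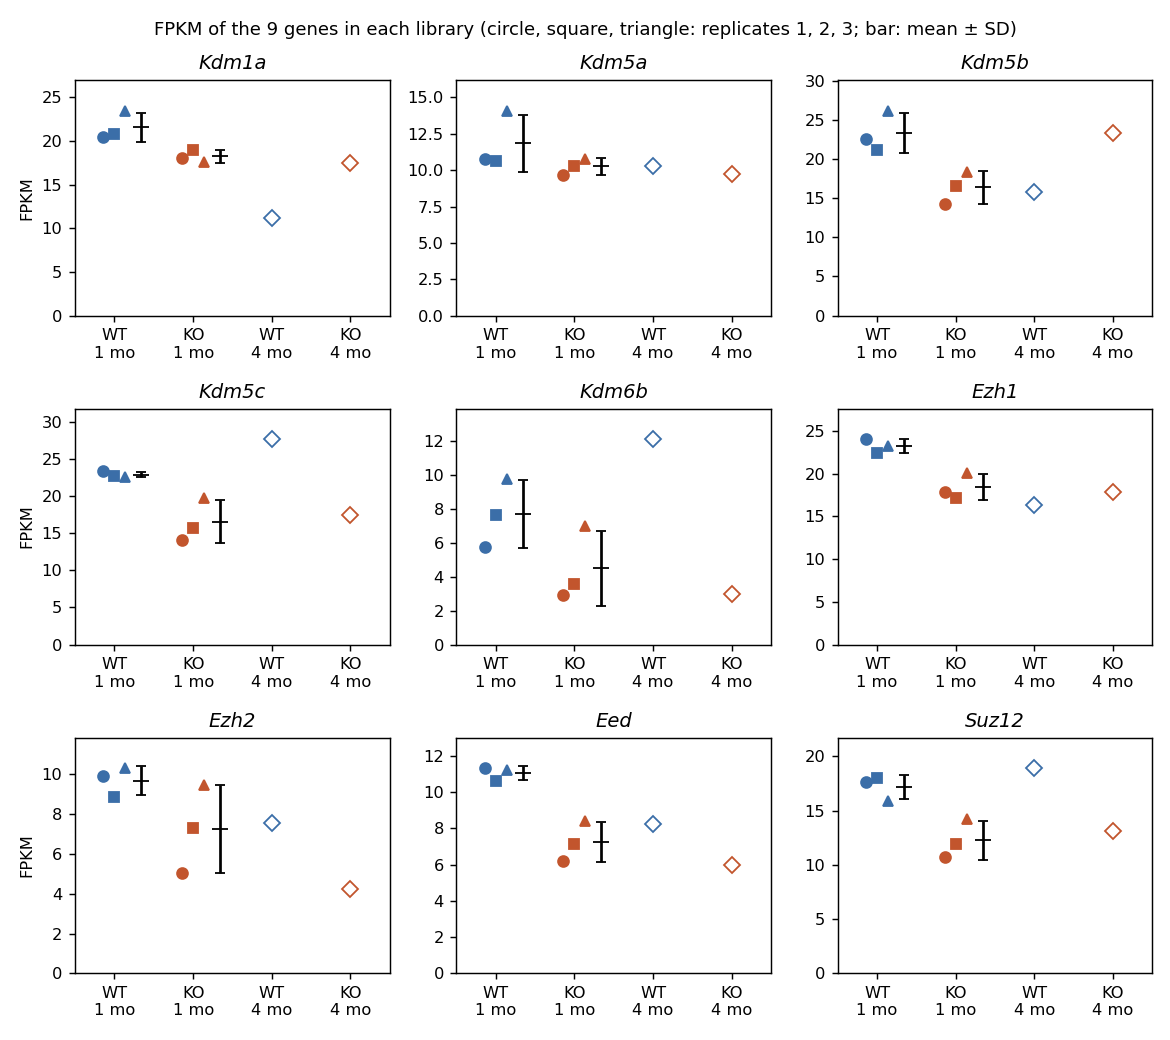
FPKM of each of the 9 genes in each of the 8 libraries, with filled marks for the replicates of 1 month, open diamonds for the single libraries of 4 months, and bars for the mean and SD of 3 libraries. In 6 of the 9 panels all KO marks of 1 month lie below all WT marks, and KO replicate 3, the triangle, is the highest KO mark in every panel but that of Kdm1a.

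At 1 month all 9 genes had a lower mean in KO than in WT, by fold changes from -0.18 for Kdm5a to -0.71 for Kdm6b on the log2(FPKM + 1) scale. The median over the 9 was -0.46, against -0.04 over all 14847 genes tested. Fold changes below 0 were common, at 55.2% of all genes. In 6 of the 9 genes every KO library lay below every WT library, which held for 20.5% of all genes. None of the 9 passed an adjusted p of 0.05 with limma and Benjamini-Hochberg adjustment over all genes, a threshold that 0.0135% of all genes passed in this direction and 4 genes in either. The unadjusted p (limma) was under 0.05 for 5 of the 9, all lower, and for 17.2% of all genes in that direction and 4636 genes in either. At an adjusted p under 0.1, 4 of the 9 were lower (Kdm5b, Kdm5c, Eed and Suz12), and so were 8.07% of all genes. In whole tissue, fewer cells of a type and less RNA per cell cannot be told apart.

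Among the H3K4 demethylases, Kdm1a stood at 20.5, 20.8 and 23.5 FPKM in WT, against 18.1, 19 and 17.6 FPKM in KO. The groups did not overlap, all 3 KO libraries being below the lowest WT library. The difference was the second smallest of the 9, at a log2 fold change of -0.23 (SE 0.1, limma adjusted p = 0.183), so that KO held 84.5% of the WT level. Kdm5a, which encodes a broadly expressed KDM5 enzyme, stood at 10.8, 10.6 and 14.1 FPKM in WT, against 9.66, 10.3 and 10.8 FPKM in KO. Here WT replicate 3 was the only library that stood apart and the groups overlapped, with a log2 fold change of -0.18 (SE 0.13, limma adjusted p = 0.39).

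Its relatives Kdm5b and Kdm5c differed more. Kdm5b, whose product removes trimethyl groups from H3K4 at promoters, stood at 22.6, 21.2 and 26.2 FPKM in WT, against 14.2, 16.6 and 18.3 FPKM in KO. Every KO library was below every WT library, and the log2 fold change was -0.49 (SE 0.14, limma adjusted p = 0.0875). Kdm5c, an X-linked gene whose loss causes intellectual disability in humans, stood at 23.3, 22.7 and 22.6 FPKM in WT, against 14.1, 15.7 and 19.7 FPKM in KO. The WT libraries lay close together, while the KO libraries were all lower and more scattered. The log2 fold change was -0.46 (SE 0.14, limma adjusted p = 0.0959). Its Y-linked counterpart Kdm5d stood at 6.57 ± 1.1 FPKM in WT and 4.94 ± 0.923 FPKM in KO (SD, n = 3), with a log2 fold change of -0.35 and overlapping groups. Xist, the RNA of the inactive X chromosome, was at most 0.083 FPKM in each of the 8 libraries, and the Y-linked Ddx3y lay between 18.7 and 26.7 FPKM.

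Kdm6b, the H3K27 demethylase, had the lowest level and the largest fold change of the 9. It stood at 5.76, 7.63 and 9.74 FPKM in WT, against 2.92, 3.56 and 7.00 FPKM in KO. KO replicates 1 and 2 were below every WT library and KO replicate 3 lay within the WT range, so the groups overlapped. The log2 fold change of -0.71 was lower than that of all but 5.79% of genes, but its SE was 0.3 and the limma adjusted p was 0.161. The related H3K27 demethylase Kdm6a, also X-linked, stood at 18.4, 21.3 and 28.0 FPKM in WT, against 11.6, 12.8 and 16.4 FPKM in KO. Its groups did not overlap, with a log2 fold change of -0.69 (SE 0.19, limma adjusted p = 0.0875). Within a library Kdm6a exceeded Kdm6b by a factor of 3.2, 2.78 and 2.88 in WT and of 3.97, 3.58 and 2.34 in KO. These ratios overlapped between genotypes and were highest in KO replicates 1 and 2.

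For PRC2, the catalytic subunit gene Ezh1 stood at 24.0, 22.4 and 23.2 FPKM in WT, against 17.9, 17.2 and 20.1 FPKM in KO. No KO library reached the WT range, and the log2 fold change was -0.32 (SE 0.11, limma adjusted p = 0.108). Its paralogue Ezh2 stood at 9.91, 8.85 and 10.3 FPKM in WT, against 5.02, 7.30 and 9.45 FPKM in KO. The 3 KO libraries were spread widely, with KO replicate 3 inside the WT range. Its log2 fold change was -0.4 (SE 0.2, limma adjusted p = 0.224). The ratio of Ezh1 to Ezh2 was 2.42, 2.53 and 2.26 in WT and 3.56, 2.36 and 2.13 in KO. KO replicate 1 alone stood above the WT range, KO replicate 2 lay within it and KO replicate 3 below it, so the ratios overlapped between genotypes.

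Both scaffold genes were lower in KO without overlap. Eed, whose product binds trimethylated H3K27 and keeps PRC2 active, stood at 11.3, 10.6 and 11.2 FPKM in WT, against 6.18, 7.11 and 8.42 FPKM in KO. The KO libraries held 65.7% of the WT level on average, and the groups did not overlap. Its log2 fold change of -0.55 had the smallest unadjusted p of the 9 (SE 0.13, limma adjusted p = 0.0731). Suz12, which holds the complex together, stood at 17.6, 18.0 and 15.9 FPKM in WT, against 10.7, 11.9 and 14.2 FPKM in KO. Its KO libraries all lay below its WT libraries, with a log2 fold change of -0.46 (SE 0.13, limma adjusted p = 0.0891). The summed level of Ezh1, Ezh2, Eed and Suz12 was 62.8, 59.8 and 60.5 FPKM in WT and 39.8, 43.6 and 52.2 FPKM in KO, so the KO sums were below the WT sums in all 3 libraries.

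The promoters of 3 PRC2 genes are shown so that the start regions of the paralogues Ezh1 and Ezh2 can be read beside that of a shared subunit, Suz12. The E2F letters searched for are known from genes of dividing cells. The sequences are RefSeq sequences of GRCm38.p6, from 250 bases before to 20 bases after the annotated start, in the direction of the gene; this build is not the mm9 of the deposited table. Capitals mark matches, on either strand, to the letters CCAAT and to the E2F letters TTTCGCGC, TTTGGCGC or TTTCCCGC. The Ezh2 promoter is at chr6:47595011-47595280 on the minus strand, that of Suz12 at chr11:79992856-79993125 on the plus strand and that of Ezh1 at chr11:101226444-101226713 on the minus strand.
Ezh2: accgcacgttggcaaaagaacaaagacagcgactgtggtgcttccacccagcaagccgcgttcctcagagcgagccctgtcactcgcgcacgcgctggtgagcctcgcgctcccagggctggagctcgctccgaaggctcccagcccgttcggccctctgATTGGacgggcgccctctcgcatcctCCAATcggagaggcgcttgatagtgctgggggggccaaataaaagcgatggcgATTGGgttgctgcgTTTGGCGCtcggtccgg
Suz12: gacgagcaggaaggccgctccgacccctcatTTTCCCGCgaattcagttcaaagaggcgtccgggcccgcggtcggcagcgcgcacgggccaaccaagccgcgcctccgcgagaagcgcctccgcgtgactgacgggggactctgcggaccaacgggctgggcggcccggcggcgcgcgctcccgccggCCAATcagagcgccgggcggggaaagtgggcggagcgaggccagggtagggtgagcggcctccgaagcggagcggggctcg
Ezh1: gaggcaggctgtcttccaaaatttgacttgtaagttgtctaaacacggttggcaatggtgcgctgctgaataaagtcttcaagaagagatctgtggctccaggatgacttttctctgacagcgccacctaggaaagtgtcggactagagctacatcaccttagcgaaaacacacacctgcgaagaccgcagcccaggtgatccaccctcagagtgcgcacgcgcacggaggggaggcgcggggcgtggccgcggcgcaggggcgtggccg

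Ezh2 held 1 match to the E2F letters and 3 to CCAAT, and Suz12 held 1 of each, with no overlap between the matches. Ezh1 held none of either. Nor did Eed, the other shared subunit, or Kdm5b, whose promoters are not shown. Kdm1a and Kdm5c held 0 matches to the E2F letters and 1 to CCAAT each. Of all 32851 promoters of this length, 1.66% held the E2F letters, 35.4% held CCAAT and 12.9% held TATAAA, which was in none of the 7 of the 9 genes that matched the table. These 7 promoters had 11 to 41 CpG, lowest in Kdm5c and highest in Suz12, against a median of 6 over all promoters. The matches are a description of letters and not of bound sites.

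**Figure D2:**
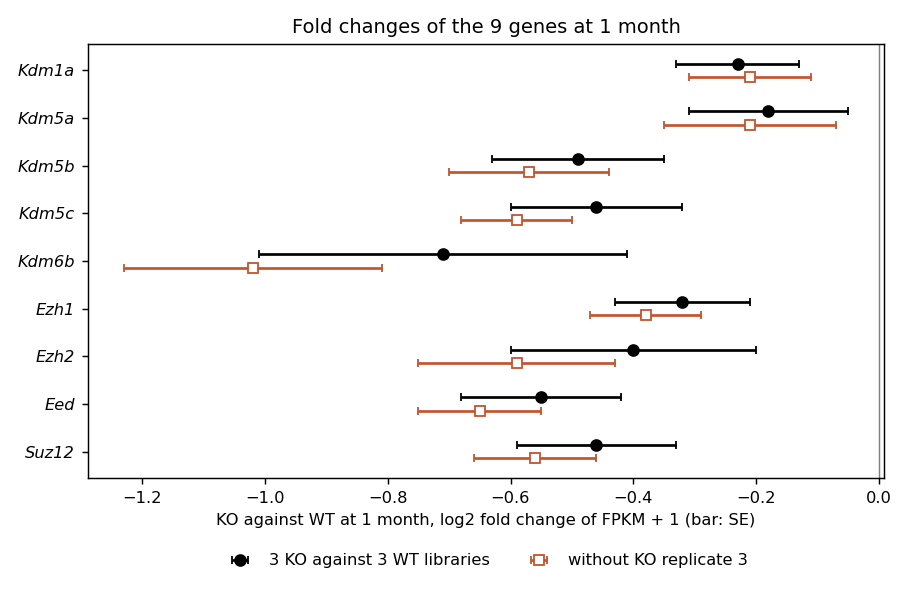
Log2 fold change of FPKM + 1 between KO and WT at 1 month for the 9 genes, with all 6 libraries (filled) and without KO replicate 3 (open); bars are standard errors. All estimates lie below 0, and for 8 of the 9 genes, all but Kdm1a, the open mark lies farther from 0.

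The 3 KO libraries did not lie together. KO replicates 1 and 2 were below every WT library in all 9 genes, and KO replicate 3 in 6 of them. The share of all genes was not computed for single KO libraries, so these counts are a description. All 3 KO libraries together were below in 20.5% of all genes. Summed over the 9 genes, the KO libraries held 66.6%, 73.2% and 84.6% of the WT mean. By the distance between libraries, KO replicates 1 and 2 were close together, at 0.08, and so were WT replicates 1 and 2, also at 0.08. KO replicate 3 was farther off, at 0.25 from KO replicates 1 and 2 alike. WT replicate 3 was at 0.19 and 0.18 from WT replicates 1 and 2. Without KO replicate 3, 7 of the 9 genes passed an adjusted p of 0.05 with limma, all lower, where 19.9% of all genes passed in that direction. The KO arm of that fit is the close KO replicates 1 and 2, so its SEs and adjusted p-values rest on their small spread. Among the PRC2 genes, the limma fold changes were -0.65 for Eed (adjusted p = 0.00781), -0.56 for Suz12 (adjusted p = 0.0137), -0.38 for Ezh1 (adjusted p = 0.0239) and -0.59 for Ezh2 (adjusted p = 0.0402). Among the demethylases they were -0.59 for Kdm5c (limma adjusted p = 0.00844), -0.57 for Kdm5b (adjusted p = 0.0248) and -1.02 for Kdm6b (adjusted p = 0.0186). Kdm1a and Kdm5a did not pass, at limma adjusted p = 0.166 and 0.293. Leaving out any other library of this age, WT replicate 1, 2 or 3 or KO replicate 1 or 2, left 0 of the 9 genes at an adjusted p under 0.1 in limma, while all 9 fold changes stayed below 0.

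KO replicate 3 was also the nearest of the KO libraries to WT in markers of granule neurons, Purkinje cells and the brainstem, though not of microglia. Granule neuron markers (12 of 12 lower) summed to 16.7%, 16.8% and 68.8% of the WT mean in KO replicates 1, 2 and 3, and Purkinje cell markers (10 of 10 tested lower) to 23.3%, 21.9% and 64.7%. The defining markers of both types were far above 0 in each 1-month library, Gabra6 at 28.5 to 219 FPKM and Pcp2 at 52.7 to 517 FPKM. Brainstem markers (13 of 13 tested higher) summed to 17.3, 18.1 and 59.9 FPKM in WT and to 177, 181 and 104 FPKM in KO. Microglia markers (12 of 12 higher) summed to 84.9 to 112 FPKM in WT and to 201 to 270 FPKM in KO, and oligodendrocyte markers to 3320 to 6590 and 4430 to 7570 FPKM. With the mean level of the brainstem markers as a covariate, the fold changes of all 9 genes stayed below 0, their median was -0.38, and 0 of the 9 and 0 of all genes passed an adjusted p of 0.05 with limma; an unadjusted p under 0.05 was seen for 0 of the 9 and for 1534 genes in all. In that fit Suz12 was at -0.06, Ezh2 at -0.14, Kdm5c at -0.17 and Ezh1 at -0.19, all nearer to 0 than without the covariate, and so was Eed at -0.38. Kdm6b was at -0.66 and Kdm5b at -0.61, while Kdm5a at -0.53 and Kdm1a at -0.48 were farther from 0 than without it. The SE of all 9 genes was larger in that fit, such as 0.23 against 0.13 for Suz12 and 0.49 against 0.2 for Ezh2. Brainstem sums did not overlap between genotypes, so that fit cannot tell genotype and brainstem level well apart. Of the marker lists, only that of the brainstem was entered in a fit, and the part of the others in the levels of the 9 genes was not tested.

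**Figure D3:**
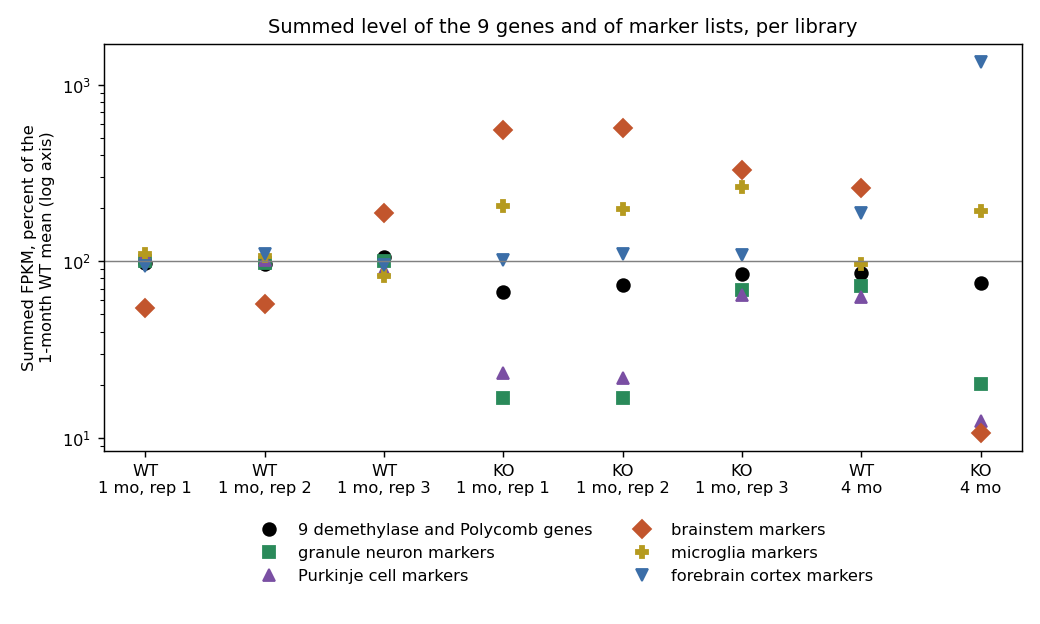
Summed FPKM of the 9 genes and of 5 marker lists in each library, as percent of the mean of the 1-month WT libraries, on a log axis. The 9 genes (black) stay between 66.6% and 106%, while granule and Purkinje markers are as low as 16.7% and 21.9% at 1 month and forebrain markers reach 1340% in the library labelled KO at 4 months.

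Other genes of these pathways were mostly lower in KO too, by lists of which none had a gene past an adjusted p of 0.05 with limma. All 5 remaining demethylases of H3K4 or H3K27 were lower in KO (median -0.35), and Kdm6a alone was under an adjusted p of 0.1, a threshold under which 8.07% of all genes were lower. The 11 partners of KDM1A in the CoREST complex were all negative, with a smaller median of -0.18. The lowest was Phf21a, a reader of unmethylated H3K4, at -0.5 with overlapping groups (limma adjusted p = 0.137), and Rcor1, the CoREST scaffold, was at -0.48 without overlap (limma adjusted p = 0.104). Their summed level was 174 to 198 FPKM in WT and 150 to 163 FPKM in KO.

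Of 8 accessory PRC2 subunits, 6 were tested, and 5 of them were negative, with a median of -0.19. Jarid2, which recruits PRC2 to its targets, had the largest difference, with 37.5 ± 7.32 FPKM in WT and 17.4 ± 5.73 FPKM in KO (SD, n = 3) and a log2 fold change of -1.09 (SE 0.24, limma adjusted p = 0.0703). Mtf2, which binds CpG-rich DNA, was at -0.36 without overlap (limma adjusted p = 0.124), and so was Aebp2, the partner of Jarid2 in PRC2.2, at -0.28 (limma adjusted p = 0.145). Of 21 PRC1 subunits, which read trimethylated H3K27 or ubiquitinate histone H2A, 19 were negative, with a median of -0.27. Among them, 2 were under an adjusted p of 0.1 in limma: Cbx8, a reader of H3K27 trimethylation, at -0.66 (adjusted p = 0.0648), and Rnf2, the ubiquitin ligase RING1B, at -0.46 (adjusted p = 0.0925). With 8.07% of all genes lower at that threshold, 2 of 21 is near the background. The enzyme that removes that ubiquitin, with its Asxl partners, differed least, with 3 of 4 negative and a median of -0.13. The 9 tested demethylases of H3K9 and H3K36 were all negative, with a median of -0.43, close to that of the 9 genes described. Kdm4b was among them at -0.49 (limma adjusted p = 0.0905), so lower levels were also seen in demethylases of other lysines.

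**Figure D4:**
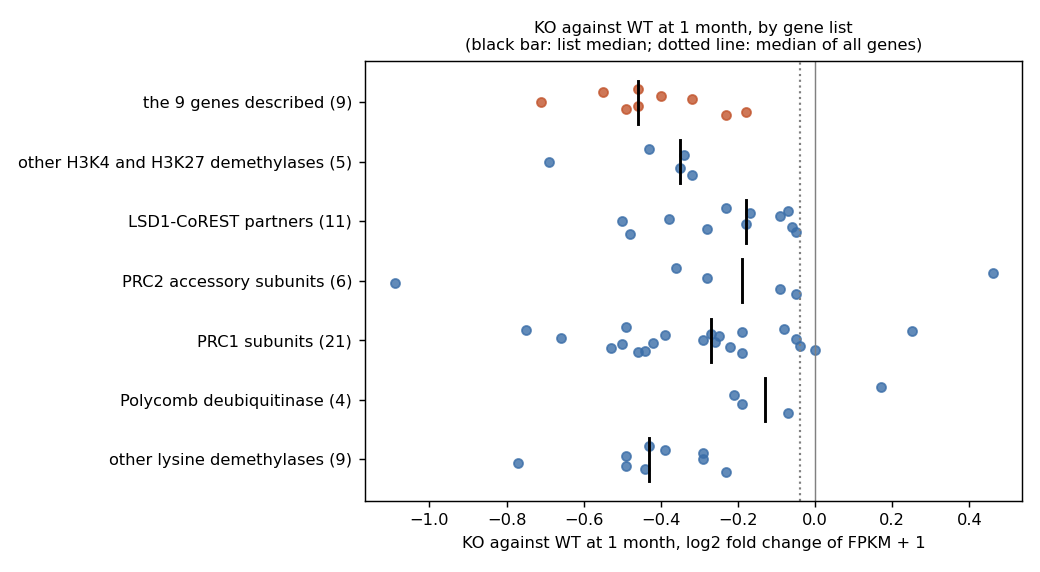
Log2 fold change of FPKM + 1 between KO and WT at 1 month for each tested gene of 7 lists, with the number tested in brackets, list medians as black bars and the median of all genes, -0.04, as a dotted line. All list medians lie below 0, from -0.46 for the 9 genes described to -0.13 for the Polycomb deubiquitinase.

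Hox genes, textbook targets of Polycomb, went the other way. Of 39 in the table, 12 passed the filter on low values, all 12 with a positive fold change (median 1.53). Under an adjusted p of 0.1 in limma were 11 of them. Of all 14847 genes, 2381 were under it in either direction, 1198 of them lower. The Hox genes summed to 3.84, 3.98 and 26.6 FPKM in WT and 66.0, 62.1 and 43.4 FPKM in KO. Genes that passed the filter only through the group where they are high had to differ, so this count is a description. Like the sums of the brainstem markers, they were lowest in WT replicates 1 and 2 and highest in KO replicates 1 and 2, and 3 of the Hox genes are also in the brainstem list. With the mean level of the brainstem markers as a covariate, 7 of the 12 were negative and 5 positive, and their median was -0.06. That covariate contains the shared Hox genes, and the sums of its markers did not overlap between genotypes. The median in that fit is thus a description and decides nothing about the Hox genes. In the library labelled KO at 4 months the Hox genes summed to 0.108 FPKM and forebrain cortex markers to 176 FPKM. The summed level of Ezh1, Ezh2, Eed and Suz12 there was 41.2 FPKM, within the range of the 1-month KO libraries. Genotype and tissue region cannot be told apart in this library, and a relation between these sums was not tested.

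At 4 months the 9 genes went in different directions in the lone WT library. It was below all 3 WT libraries of 1 month in 6 of the 9 genes and above them in the other 3, against 47.4% and 28.9% of all genes. Kdm1a was the lowest of all libraries there, at 11.2 FPKM or 51.7% of the 1-month WT mean. The others below were Kdm5b at 15.8, Ezh1 at 16.3, Eed at 8.21, Ezh2 at 7.54 and Kdm5a at 10.3 FPKM. Those above were Kdm6b at 12.1, Kdm5c at 27.6 and Suz12 at 18.9 FPKM. Kdm6b thus stood at 157% of its 1-month WT mean, and Suz12 at 110%. PRC2 genes parted in this library, since Ezh1, Ezh2 and Eed were lower and Suz12 was higher.

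Age was tested over all 8 libraries with genotype as a term, and none of the 9 genes passed an adjusted p of 0.05 with limma, which 1.23% of all genes did in the lower direction and 295 genes in either. By other counts, 1 of the 9 (Kdm1a, lower) had an unadjusted p under 0.05 in limma, as had 16.4% of all genes in that direction and 3620 genes in either. The fold changes ran from -0.48 for Kdm1a (SE 0.19, limma adjusted p = 0.182) and -0.47 for Ezh2 (SE 0.21, limma adjusted p = 0.218) to 0.18 for Kdm5c (SE 0.15, limma adjusted p = 0.505). Without the library labelled KO at 4 months, Kdm1a fell by 0.89 on the log2 scale (SE 0.15, limma adjusted p = 0.0307) and was the only one of the 9 past the threshold, which 6.57% of all genes passed in that direction. The 4-month arm of that fit is the lone WT library, which is taken to vary like those of 1 month. With the WT libraries alone the estimate was equal and the limma adjusted p was 0.0614. Ezh1 was at -0.49 (limma adjusted p = 0.0802) and Kdm5b at -0.53 (limma adjusted p = 0.12) without that KO library. Of the rest, Kdm6b went from 0.11 to 0.62 (limma adjusted p = 0.361), Ezh2 was at -0.32 (limma adjusted p = 0.491) and Kdm5c at 0.26 (limma adjusted p = 0.402). Without the 4-month WT library, Kdm1a was at -0.06 (limma adjusted p = 0.824) and Kdm5b at 0.49 (limma adjusted p = 0.139), and Kdm6b turned to -0.4 (limma adjusted p = 0.576), so the age difference of Kdm1a rested on the WT library. Granule and Purkinje markers in this WT library summed to 72.3% and 63.1% of the 1-month WT mean, brainstem markers to 260% and oligodendrocyte markers to 49.4%, and their part in the level of Kdm1a was not tested.

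The library labelled KO at 4 months was below all 1-month WT libraries in 8 of the 9 genes, with Kdm5b the exception at 23.3 FPKM. The share of all genes below them in this library was not computed, so the count is a description. Ezh2 at 4.25 and Eed at 5.99 FPKM were lower there than in any other library. Kdm6b at 2.97 FPKM lay between KO replicates 1 and 2 of 1 month. The remaining levels were 17.5 FPKM for Kdm1a, 9.74 for Kdm5a, 17.4 for Kdm5c, 17.9 for Ezh1 and 13.1 for Suz12. The ratio of Ezh1 to Ezh2 was 4.2, the highest of the 8 libraries, against 2.16 in the WT library of this age.

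Between the 4-month libraries the comparison has no replicate and no test. On the log2(FPKM + 1) scale, 3 of the 9 genes were lower in KO by 0.5 or more, as were 24.7% of all genes, namely Kdm6b at -1.73, Ezh2 at -0.7 and Kdm5c at -0.63. Another 2 were higher by that much, Kdm1a by 0.6 and Kdm5b by 0.53, as were 23.6% of all genes. Suz12 at -0.5, just inside 0.5 before rounding, was not counted, and Eed at -0.4, Kdm5a at -0.07 and Ezh1 at 0.13 lay between. The shares of the 9 genes were thus near those of all genes. Granule, Purkinje and brainstem markers in the KO library summed to 20.3%, 12.4% and 10.7% of the 1-month WT mean. Of the 328 FPKM summed over the granule list, 252 FPKM came from Slc17a7, a vesicular glutamate transporter gene that forebrain neurons also express and that was at 126 FPKM or less in each of the other libraries. The median log2 difference of the granule markers from the 1-month WT mean was -4.27. With forebrain markers present as well, genotype and tissue region cannot be told apart at this age.

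Kdm1a and Kdm5b were lower in KO at 1 month and higher by over 0.5 at 4 months. The genotype-by-age term was 0.83 for Kdm1a (SE 0.21, limma adjusted p = 0.0496) and 1.02 for Kdm5b (SE 0.27, limma adjusted p = 0.0592). Kdm1a was thus the only one of the 9 past the threshold, which 6.13% of all genes passed in that direction. Its adjusted p ran from 0.0307 to 0.109 over the alternatives tried, and it missed the threshold without WT replicate 1 or 2 or KO replicate 1 or 2 (limma adjusted p = 0.102, 0.108, 0.109 and 0.103). Kdm1a also missed the threshold with a pseudocount of 0.1, quantile normalization, shifting to 1 median or rescaling without short RNAs. The term compares 1 library of each genotype at 4 months and takes them to vary like those of 1 month. It cannot be had without the KO library in which Gabra6, Fat2, Cbln3 and Pcp2 are near 0. Kdm6b had a term of -1.02 with an SE of 0.6 (limma adjusted p = 0.299). For the other 6 genes the term lay between -0.3 for Ezh2 and 0.45 for Ezh1, with limma adjusted p from 0.202 to 0.931.

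Profiles over the 8 libraries were set side by side by the mean absolute difference of centred log2(FPKM + 1) values. Among the 9 genes, Kdm5c and Suz12 were the most alike, at 0.057, followed by Kdm5a and Ezh1 at 0.12 and by Ezh2 and Eed at 0.128. Kdm6b was the least like the rest, at 0.334 from its nearest, Ezh2. Among 9328 other genes, the closest to Ezh1 was the Y-linked Eif2s3y at 0.025, the closest to Eed was Snrnp40 at 0.041 and the closest to Suz12 was Unkl at 0.045. For the demethylases the closest were Cdc42 for Kdm1a at 0.057, Rc3h1 and Ubr2 for Kdm5a at 0.038, Far2 for Kdm5b at 0.044, Farsa for Kdm5c at 0.038 and Mus81 for Kdm6b at 0.086. Dnajc19 was the closest to Ezh2, at 0.09. Each member thus had genes outside the 9 nearer to it than any of the 9. With 9328 candidates outside and few inside, this was likely for any gene and says nothing about how alike the 9 are. Without the library labelled KO at 4 months, Kdm5c and Suz12 were again the most alike of the 9, at 0.063, and Kdm6b the least like the rest, at 0.3 from its nearest, which was then Kdm5c. The closest of 9320 other genes were again Rc3h1 for Kdm5a, Eif2s3y for Ezh1 and Snrnp40 for Eed, while those of the other 6 genes changed, such as to Thoc7 for Kdm1a at 0.032 and to Cacna2d2 for Suz12 at 0.028. The points share libraries and depth, so these distances describe these libraries only.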

How the data were processed

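RNA from cerebellum was prepared with Trizol and sequenced on an Illumina HiSeq, per the labels; of 37 samples the 29 of chromatin were not analysed here. The authors deposited 1 table of FPKM values with a column for each of 8 libraries, and 0 columns were left unmapped. TopHat2 2.1.0, Bowtie 1.1.2, Cuffdiff and mm9 are named in the submitters' processing notes. The sources used here give no annotation, strand setting or filters, so overlapping or antisense genes cannot be told apart. A repeated header, 1 row, was removed. Of the symbols, 19772 matched a current name and 2660 an older name in a GRCm38.p6 table.

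From the FPKM values, log2(FPKM + 1) was computed and tested with limma 3.58.1 in R 4.3.3, in genes whose mean over the libraries of the fit reached 1 FPKM, with Benjamini-Hochberg adjustment over all such genes and a threshold of 0.05, beside 0.1. The log2 scale understates changes of low genes. Genotype was tested in the 6 libraries of 1 month, and age and the genotype-by-age term in all 8. For a single gene an exact permutation test of 3 against 3 libraries cannot go below 0.1 (two-sided). The script was tested on simulated data.

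The 9 genes and the gene lists were chosen with earlier results of these data known. The 8 forebrain markers, the fit of WT libraries alone and the profiles without the 4-month KO library were chosen after seeing the data. Named genes were the 9, the targeted gene, Kdm6a, sex-linked genes, up to 3 genes with the smallest p from each other list, and the closest profiles among genes whose mean reached 5 FPKM. Epop and the E2F and CCAAT letters were chosen after values were seen.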

Additional observations from a re-analysis of the deposited data

Results flagged for a closer look

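In these libraries the difference of Kdm1a between KO and WT was not the same at both ages. It was -0.23 at 1 month (3 libraries of each genotype) and 0.6 at 4 months (1 library of each), and the genotype-by-age term was 0.83 on the log2 scale (SE 0.21, limma adjusted p = 0.0496). The values behind it were 11.2 FPKM in the 4-month WT library, the lowest of all 8, and 17.5 FPKM in the library labelled KO. In that KO library the cerebellar markers Gabra6, Fat2, Cbln3 and Pcp2 are near 0, so genotype and tissue region cannot be told apart at this age. The Kdm1a term was at percentile 87 of the terms of all genes tested. The Kdm1a term missed the threshold without some single libraries of 1 month. It also missed it with a pseudocount of 0.1, quantile normalization, shifting to 1 median or rescaling without short RNAs. Kdm5b had a larger term, 1.02, that missed the threshold (limma adjusted p = 0.0592).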

How the results depend on the processing

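At 1 month the median of the 9 genes lay between -0.36 and -0.57 and all 9 fold changes below 0 under every alternative run. Counts depended on the setting. As reported, 4 genes and 0 of the 9 were called at 1 month (limma adjusted p under 0.05), and 4 of the 9 were under 0.1. In the list that follows, the first number counts all genes under 0.05 and the second those of the 9 under 0.1. In each setting of that list, 0 of the 9 were called. The share of all genes under 0.1 is given only for the main fit, at 8.07% lower. A pseudocount of 0.1 gave 12 genes and 1 of the 9 at 0.1; no filter, 1 and 1; a mean of at least 5 FPKM, 13 genes; quantile normalization, 8 and 1; shifting to 1 median, 42 and 2; rescaling without short RNAs, 19 and 2; trend and robust empirical Bayes, 9 genes; all 8 libraries with age, 0 genes; the brainstem covariate, 0 and 0. Array weights gave 8095 genes, with 7 of the 9 called and 8 at 0.1. Leaving out 1 library gave 1 to 5037 genes, 0 to 7 of the 9 called and 0 to 7 at 0.1. The highest of each was without KO replicate 3, a fit that keeps only the close KO replicates 1 and 2. Same-numbered libraries did not deviate together over the tested genes (correlations 0.17, 0.03 and 0.04). Their shares of short RNAs ranked alike, at 31.9%, 44.7% and 36.2% in WT replicates 1, 2 and 3 and 24.4%, 43.5% and 36.8% in KO. Replicate 3 had the lowest estimated depth in both genotypes at this age, 0.732 in WT and 0.768 in KO. Whether the numbers pair libraries thus cannot be told. A replicate block gave 0 genes, 0 of the 9 called, 3 at 0.1 and a median of -0.46.

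For age (295 genes, 0 of the 9), a pseudocount of 0.1 gave 163 genes, no filter 447, at least 5 FPKM 671, rescaling 1, no 4-month WT library 2278, no 4-month KO library 1531 with 1 of the 9, and WT alone 18; leaving out a 1-month library gave 2 to 550. For genotype by age (1723 genes, 1 of the 9), a pseudocount of 0.1, quantile normalization, shifting and rescaling gave 0 of the 9, and at least 5 FPKM and the trend 2; leaving out a library gave 492 to 3448 genes and 0 to 2 of the 9. At 4 months, at least 5 FPKM left 2395 of 3649 genes lower, rescaling left 1 of 2 genes higher among the 9, and a difference of at least 1 left 1 of the 9 and 1653 genes lower, and 0 of the 9 and 1415 of 3488 genes higher. The causes were not tested. Absolute depth is unknown, and 4 months has 1 library of each genotype. Signs turned too; for single genes these values were at adjusted p above 0.1. For Kdm5b, age was -0.02, against 0.05 (quantile normalization or rescaling), 0.09 (shifting), 0.49 (no 4-month WT library) and -0.09 to 0.05 (without a 1-month library); for Kdm6b it was 0.11, against -0.4 without the 4-month WT library. Without a 1-month library, genotype by age ran from -0.02 to 0.17 for Kdm5a and from -0.13 to 0.06 for Suz12. The Hox median of 1.53 was -0.06 with the brainstem covariate, which itself contains some of the Hox genes.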

Other observations

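E130012A19Rik, an older symbol of Epop, which joins PRC2 to elongin and is known from embryonic stem cells, stood at 13.0 FPKM in the library labelled KO at 4 months and at 0.685 to 1.22 FPKM in the other 7 libraries. This value was noticed after seeing the data, and its relation to the tissue in that library was not tested.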
